A study of Oryza sativa with 6 samples.

Results

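The comparison set L-type lateral roots of rice (Oryza sativa, genotype label Mulai) against S-type lateral roots, as 4 of the 6 messenger RNA libraries of the series. Of 37942 gene models, 16167 held at least 50 scaled fragments in the highest of these 4 libraries. Among those 16167, a set of 1439 genes (8.9%) was at least 2-fold higher in L-type roots under both treatments, and a set of 1090 genes (6.74%) was at least 2-fold lower. Scaled fragments are the deposited fragment counts of a gene multiplied by 1 factor per library. The groups were L-type roots under control, S-type roots under control, L-type roots after 7 days in 50 mM NaCl, S-type roots after the same salt treatment, and nodal roots under each of the 2 conditions. All 6 groups carry the same genotype label and are labelled day 7, control included, and each holds 1 library. The labels give neither the number of plants in a library nor whether L-type and S-type roots were cut from the same plants.

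Lateral roots of rice come in distinct classes. S-type laterals are short and thin and do not branch, while L-type laterals are longer and thicker and form laterals of their own. Nodal roots arise from the stem and form the main axes of the root system, and both lateral types are borne on such axes. A lateral root grows by division in a meristem at its tip and by expansion behind it, and its vascular tissue builds cellulose and lignin into thick secondary walls.

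The libraries held 5620282 fragments in genes for L-type roots under control, 6229661 for S-type roots under control, 7194615 for L-type roots under salt and 8711710 for S-type roots under salt. The nodal libraries held 7897875 under control and 7908373 under salt. The S-type library was the deeper one under both treatments. With no replicate, each ratio has an exact 95% interval for counting error only. The test across all genes (limma, 20136 genes) took its error from how far the L-type minus S-type difference varied between control and salt, and from the same kind of variation in nodal roots. That error has 2 residual degrees of freedom and is not a spread between plants. In bulk roots, fewer cells of a type and less RNA per cell cannot be told apart.

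The labelled tissue was checked against markers. The silicon transporters LSI1 and LSI2, which belong to the root barrier cell layers, were among the S-type genes with the highest counts, with values given below. RCC3, also set as a root marker, did not pass the name check. The locus listed for it, Os02g0662000, went the other way. It held 3911 and 4431 in the control and salt L-type libraries, against 378 and 414 in the S-type libraries. Of the green tissue markers, RCA was listed at 0 in all 4 lateral libraries and CAB2R had at most 3.76 scaled fragments there. CAB1R, a light-harvesting protein gene, had 192 and 54.3 in the control and salt L-type libraries, against 63.01 and 24.3 in the S-type libraries. CAB1R was thus higher in L-type roots under both treatments (log2 fold change 1.37, SE 0.25, limma adjusted p = 0.0108), and its part in the results below was not tested. Without the control L-type or the control S-type library CAB1R did not pass (adjusted p = 0.053 and 0.0681).

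L-type and S-type roots differed in the same direction in most strongly changed genes. Under control alone, 2008 of 15617 genes (12.9%) were at least 2-fold higher in L-type roots and 1799 (11.5%) were lower. Under salt alone, 1795 of 15583 genes (11.5%) were higher and 1795 (11.5%) were lower. In all, 49 of the 16167 genes were at least 2-fold higher in L-type roots under control and at least 2-fold lower under salt, and 2 genes showed the reverse. At a 4-fold threshold under both treatments, 243 genes were higher and 217 lower in L-type roots. At 16-fold the counts were 19 and 17.

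**Figure D1:**
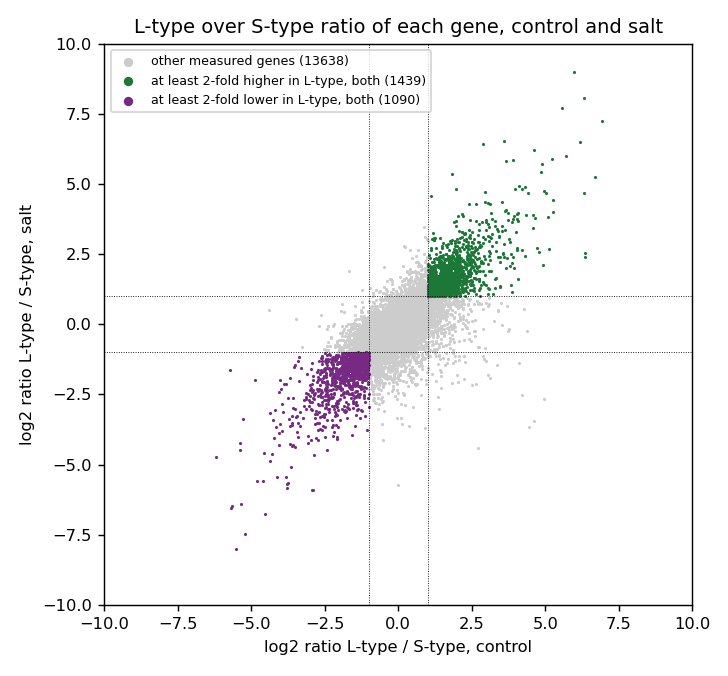
Log2 ratio of scaled fragments (plus 1) in L-type over S-type roots, with control on the horizontal and salt on the vertical axis, for the 16167 genes with at least 50 in the highest lateral library. Dotted lines mark a 2-fold difference; 1439 genes lie in the upper right and 1090 in the lower left corner, while 49 lie in the lower right corner.

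The 1439 higher genes had a median log2 ratio of 1.65 under control and 1.58 under salt, and the 1090 lower genes had -1.64 and -1.62. The ratios of the 2 treatments differed by 1 or more on the log2 scale in 136 (9.45%) of the higher and in 138 (12.7%) of the lower genes. The ratio was the larger one under salt in 671 (46.6%) of the higher and 522 (47.9%) of the lower genes. Just inside the threshold the smaller ratio was 1.0013 for a higher and 1.00087 for a lower gene, and just outside it was 0.99985 and 0.99924. By limma at an adjusted p under 0.05, 3784 of 20136 genes (18.8%) were higher and 3064 (15.2%) lower in L-type roots, which makes 6848 (34.0%) in either direction. The limma test had values for all 1439 higher and for 1059 of the 1090 lower genes, and 1427 and 1025 of them passed. That test used the same values as the fold rule, so these shares are a description. The calls depended on the control S-type library, without which 1992 genes were higher and 1142 lower. Without the salt L-type library 1878 genes were lower, and without the salt S-type library 1749.

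The authors' deposited table, from Cuffdiff, called far fewer genes. In it, 28 of 20538 genes (0.136%) differed between L-type and S-type roots under control, 18 of them higher in L-type. Under salt, 37 of 20619 genes (0.179%) differed in the authors' deposited table, 20 of them higher in L-type. Calls under both treatments in the authors' deposited table numbered 7, including Os04g0191400, Os04g0191500 and Os11g0428800, whose values follow. Most of the other genes described below were called there under neither treatment, and the following are examples. The Cuffdiff q-values under control and salt were 0.678 and 0.999 for Os03g0103100, 0.629 and 0.999 for MT2C and 0.392 and 0.821 for PIN1B. For CATA they were 0.999 and 0.835, for CESA4 0.659 and 0.319, and for LSI1 0.999 under both.

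Genes nearly silent in S-type roots led the higher set. Os04g0191400 (chromosome 4, 6225138 to 6226576) held 120.3 and 152 scaled fragments in the control and salt L-type libraries and was listed at 0 in both S-type libraries. Its neighbour Os04g0191500 (chromosome 4, 6231634 to 6232379) held 71.4 and 89.2 in L-type libraries and was also at 0 in both S-type libraries. Against a floor of 3 fragments per library, the L-type value of Os04g0191400 was 31.2-fold higher under control and 56.2-fold higher under salt. For Os04g0191500 these ratios were 18.5-fold and 33.03-fold. They leave out the counting error of the L-type libraries and are not lower bounds. The lower ends of the counting intervals lay below them. On the log2 scale these ends were 4.64 and 5.50 for Os04g0191400 under control and salt, and 3.87 and 4.72 for Os04g0191500. The files pair neither identifier with a name, and nodal roots held 33.9 and 78.8 of the first and 37.4 and 65.5 of the second under control and salt.

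A second pair of neighbours behaved alike. Os03g0103100 (chromosome 3, 208340 to 209118) held 899.5 and 1002 in the control and salt L-type libraries, against 10.3 and 2.7 in the S-type libraries. Its log2 ratio was 6.32 (interval 5.46 to 7.67) under control and 8.08 (6.98 to 10.82) under salt. Os03g0103200 (chromosome 3, 211082 to 211817) held 224 and 506 in the control and salt L-type libraries, against 2.57 and 0 in the S-type libraries. The beta-expansin gene EXPB7, whose protein loosens cell walls, lies nearby (Os03g0102700, chromosome 3, 189332 to 191268) and held 57.6 and 83.7 in the control and salt L-type libraries, against 2.57 and 4.5 in the S-type libraries (log2 fold change 4.002, SE 0.37, limma adjusted p = 0.00209). For all 3 genes both L-type libraries lay above both S-type libraries. Nodal roots held 3299 and 1729.9 scaled fragments of Os03g0103100, 579 and 686 of Os03g0103200 and 184 and 126 of EXPB7 under control and salt.

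Metallothioneins, small cysteine-rich proteins that bind metals, stood on both sides. MT2C (Os01g0974200, chromosome 1, 43047164 to 43047861) held 417 and 594 in the control and salt L-type libraries, against 7.71 and 1.8 in the S-type libraries. MT2B (Os05g0111300, chromosome 5, 605868 to 606764) held 1255 and 1510.1 in the control and salt L-type libraries, against 42.4 and 34.2 in the S-type libraries (log2 fold change 5.15, SE 0.22, limma adjusted p = 0.00169). MT1B (Os03g0288000, chromosome 3, 9957175 to 9958291) held 550.0 and 1051 in the control and salt L-type libraries, against 4269 and 8421 in the S-type libraries (log2 fold change -2.96, SE 0.17, limma adjusted p = 0.00169), so that it went the other way. The MT2C log2 ratio was 5.58 (4.62 to 7.21) under control and 7.73 (6.51 to 11.41) under salt, resting on 6 and 2 fragments in the S-type libraries. In the name table both type 2 genes carry synonyms of each other, so the identifiers decide which is meant. Of 4 tested metallothioneins, a list chosen after values were seen, 2 were higher and 1 lower.

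**Figure D2:**
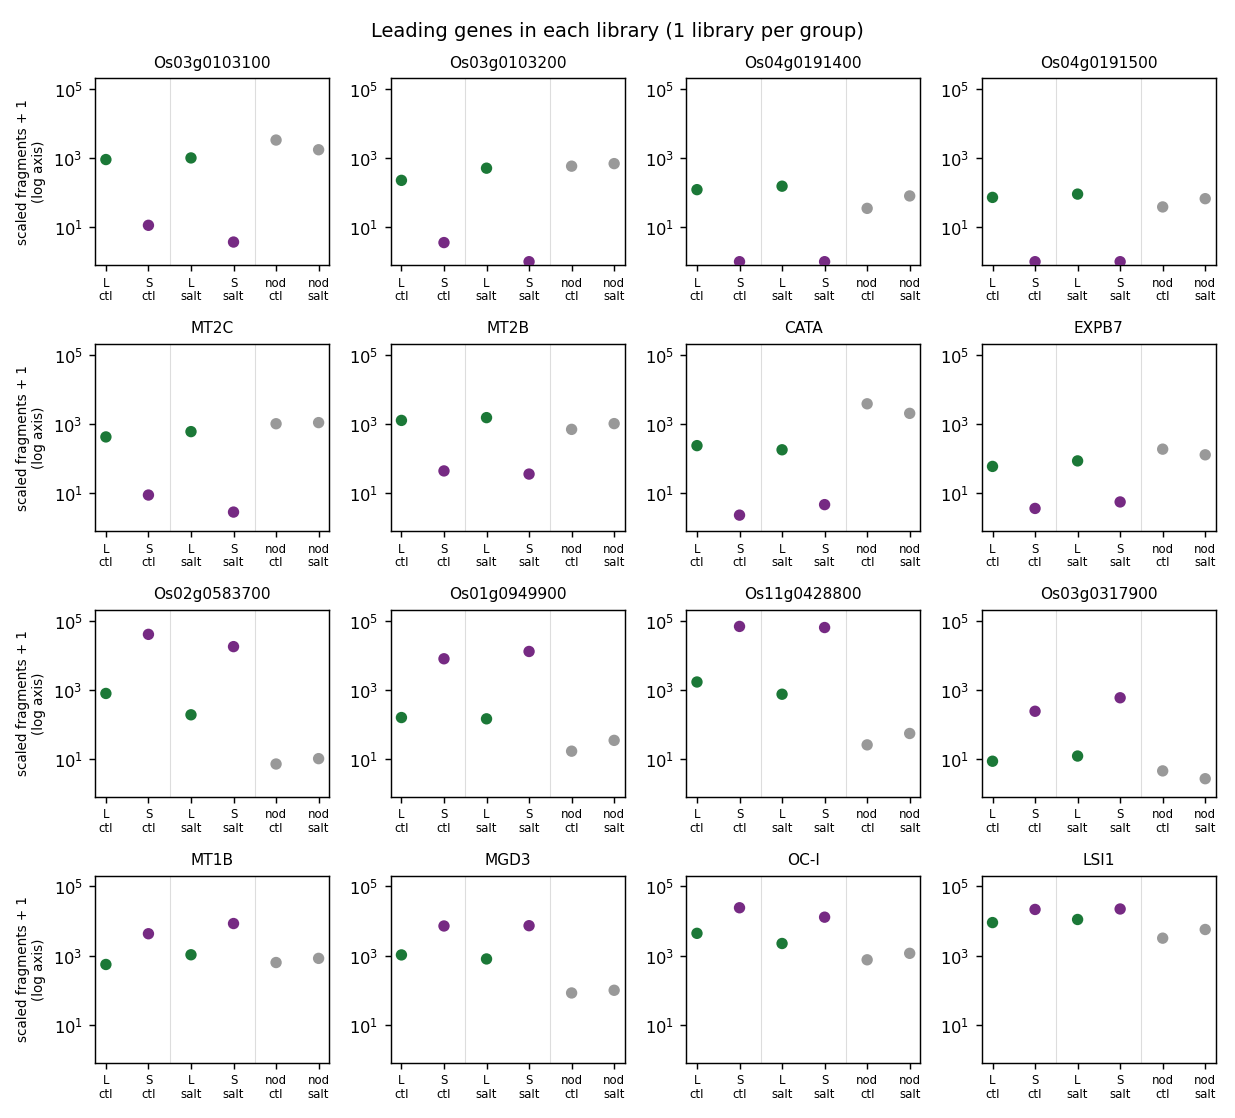
Scaled fragments plus 1 (log axis) of 16 genes in each library, with L-type in green, S-type in purple and nodal roots in grey, and 1 point per library. These are leading genes picked for their direction, so the separation of their points is a description. In the upper 8 panels both L-type points lie above both S-type points, and in the bottom 8 panels both S-type points lie above both L-type points; LSI1 has the smallest separation, with 8976 and 11029.8 in L-type against 21526 and 22198 in S-type libraries.

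Among enzymes, the catalase gene CATA (Os02g0115700, chromosome 2, 825041 to 827640), which breaks down hydrogen peroxide, held 233 and 177 in the control and salt L-type libraries, against 1.29 and 3.6 in the S-type libraries. Its log2 ratio was 6.68 (5.01 to 12.81) under control and 5.27 (4.24 to 7.51) under salt. The alcohol dehydrogenase gene ADH1 (Os11g0210300, chromosome 11, 5712671 to 5716288), of ethanol fermentation, held 78.9 and 59.8 in the control and salt L-type libraries, against 3.86 and 8.1 in the S-type libraries (log2 fold change 3.402, SE 0.41, limma adjusted p = 0.00328). Nodal roots held 3797 and 2008 of CATA and 416 and 264 of ADH1 under control and salt. Of 4 tested catalases and peroxidases 1 was higher and 1 lower. The lower one was the cytosolic ascorbate peroxidase gene APX2, with 2052 and 2171 in the control and salt L-type libraries, against 3452 and 3659 in the S-type libraries. APX2 did not pass without the control L-type, the control S-type or the salt S-type library (adjusted p = 0.0784, 0.0639 and 0.119). Of 4 tested genes of fermentation and sucrose use, ADH1 was higher and the other 3 did not pass.

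Of the 1427 higher genes that passed limma, 3 of the 8 with the largest L-type counts have names. LOX3 (Os03g0699700, chromosome 3, 28049600 to 28053726), a lipoxygenase gene, held 6180.0 and 4615 in the control and salt L-type libraries, against 1717 and 1673 in the S-type libraries (log2 fold change 1.67, SE 0.22, limma adjusted p = 0.00408). TIP1;1 (Os03g0146100, chromosome 3, 2562812 to 2564646), a water channel of the vacuole membrane, held 5620.0 and 3547 in the control and salt L-type libraries, against 1672 and 1741 in the S-type libraries (log2 fold change 1.401, SE 0.24, limma adjusted p = 0.00865). ACC2 (Os05g0295300, chromosome 5, 13064075 to 13078060), for acetyl-CoA carboxylase of fatty acid synthesis, held 3286 and 4207 in the control and salt L-type libraries, against 1531 and 2020.4 in the S-type libraries. Per length, its deposited FPKM was 132 and 92.9 in L-type, against 93.95 and 78.98 in S-type libraries. By that measure ACC2 fell short of a 2-fold difference under both treatments. Its locus holds 2 gene models, and the cause of the gap between the measures was not tested. ACC2 had a log2 fold change of 1.09 (SE 0.17, limma adjusted p = 0.00684) and did not pass without the control S-type library (adjusted p = 0.0603). LOX3 differed from the other 2 in nodal roots, where it held 1251 and 1667 under control and salt, against 9685 and 5375 of TIP1;1 and 6487 and 6012 of ACC2.

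Genes of dividing cells were higher in L-type roots. Of 11 tested members of that list 10 were higher and 0 lower, with a median log2 fold change of 1.48, where the median of all 20136 tested genes was -0.00011. Over all tested genes 18.8% were higher and 15.2% lower, which is the background for the count of every list. The mitotic cyclin CYCB2;1 (Os04g0563700, chromosome 4, 28218715 to 28221789) held 462 and 459 in the control and salt L-type libraries, against 147 and 144 in the S-type libraries (log2 fold change 1.67, SE 0.14, limma adjusted p = 0.00197). MCM2 (Os11g0484300, chromosome 11, 17046950 to 17052914), part of the helicase that licenses DNA replication, held 742 and 781 in the control and salt L-type libraries, against 231 and 260.2 in the S-type libraries (log2 fold change 1.64, SE 0.13, limma adjusted p = 0.00197). CYCB1;5 (Os05g0493500), another mitotic cyclin, held 469.8 and 418 in the control and salt L-type libraries, against 150.4 and 152 in the S-type libraries. In each of these 3 genes the L-type libraries were more than 2-fold above the S-type libraries, and nodal roots were near L-type roots, with 405 and 454 of CYCB2;1 and 732 and 687 of MCM2. KRP1 (Os02g0762400), an inhibitor of cyclin-dependent kinases, was the member that did not pass (log2 fold change 0.51, SE 0.16, limma adjusted p = 0.0562).

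Regulators of root patterning did not share a direction. Of 15 listed genes, 8 had a name that passed the check and 6 were tested. Of these 6, 1 was higher and 2 were lower, with a median of -0.50, where 18.8% of all tested genes were higher and 15.2% lower. WOX6 (Os03g0325600, chromosome 3, 11845143 to 11849051), a homeobox gene, held 16.3 and 27.6 in the control and salt L-type libraries, against 74.6 and 68.4 in the S-type libraries (log2 fold change -1.69, SE 0.34, limma adjusted p = 0.0138). SHR1 (Os07g0586900, chromosome 7, 23868809 to 23871087), a SHORT-ROOT gene of ground tissue patterning, held 138 and 160.0 in the control and salt L-type libraries, against 298 and 233 in the S-type libraries (log2 fold change -0.81, SE 0.20, limma adjusted p = 0.0262). QHB (Os01g0854500, chromosome 1, 36813736 to 36815023), which marks the quiescent centre, rested on few fragments: 6 and 12 in the control and salt L-type libraries, against 0 and 2 in the S-type libraries. WOX10 (Os08g0242400), known in rice for its part in lateral root diameter, was listed at 0 in all 6 libraries. QHB, WOX6 and SHR1 all failed to pass without the control S-type library (adjusted p = 0.104, 0.0995 and 0.154) or without the control L-type library (0.0814, 0.065 and 0.111). QHB and SHR1 did not pass without the salt L-type library either (0.0678 and 0.0516).

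More auxin genes were higher than lower in L-type roots. Of 11 tested genes of auxin transport and response 6 were higher and 1 lower, with a median of 0.69. PIN1B (Os02g0743400, chromosome 2, 31158860 to 31162244), which the name table also lists as PIN1A, held 747 and 711 in the control and salt L-type libraries, against 179 and 250.3 in the S-type libraries (log2 fold change 1.79, SE 0.19, limma adjusted p = 0.00249). PIN2 (Os06g0660200, chromosome 6, 27200808 to 27204611), which moves auxin away from the root tip, held 398 and 454 in the control and salt L-type libraries, against 138 and 166 in the S-type libraries (log2 fold change 1.502, SE 0.14, limma adjusted p = 0.00216). PIN9 (Os01g0802700), another auxin efflux gene, had the lowest fold change of the list and did not pass, with 2.51 and 11.96 in the control and salt L-type libraries, against 73.3 and 8.1 in the S-type libraries (log2 fold change -1.94, SE 1.096, limma adjusted p = 0.216). Its L-type library was the lower one under control only, and without the salt S-type library it passed as lower (adjusted p = 0.012). PIN5A and PIN5B did not reach the filter for testing. Of the Aux/IAA repressors, IAA11 (Os03g0633500) held 213 and 227 in the control and salt L-type libraries, against 92.6 and 99.04 in the S-type libraries, and IAA20 (Os06g0166500) was lower, with 111 and 92.9 in L-type, against 229 and 209 in S-type libraries. IAA20 did not pass without the salt S-type library (adjusted p = 0.0602). None of 6 tested cytokinin genes passed the limma test, with a median of -0.08. CKX1, which degrades cytokinin, had a log2 fold change of 0.54 (SE 0.21, limma adjusted p = 0.0989), and the response regulator RR4 had 0.29 (SE 0.20, limma adjusted p = 0.294).

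Secondary wall cellulose synthases showed larger differences than those of primary walls. Of 8 genes listed for xylem and secondary wall, 3 had a name that passed the check. All 3 were higher in L-type roots, with a median of 2.85. CESA4 (Os01g0750300, chromosome 1, 31422946 to 31428670) held 317 and 464 in the control and salt L-type libraries, against 46.3 and 60.3 in the S-type libraries (log2 fold change 2.85, SE 0.22, limma adjusted p = 0.00197). CESA7 (Os10g0467800) held 266 and 396 in L-type, against 47.6 and 42.3 in S-type libraries, and CESA9 (Os09g0422500) held 175 and 309 in L-type, against 32.1 and 28.8 in S-type libraries. No S-type library reached the lower L-type library for any of the 3, and nodal roots held more than either lateral type, with 2281 and 1785 of CESA4 under control and salt. Of 5 tested primary wall cellulose synthases 4 were higher and 0 lower, with a median of 0.75. CESA3 (Os07g0424400) held 2873 and 4769 in the control and salt L-type libraries, against 1359 and 1353 in the S-type libraries (log2 fold change 1.46, SE 0.23, limma adjusted p = 0.00655), and CESA6 (Os07g0252400) held 4559 and 3837 in L-type, against 1956 and 2187 in S-type libraries. CESA5 did not pass (log2 fold change 0.26, SE 0.15, limma adjusted p = 0.227), and CESA6 did not without the control S-type library (adjusted p = 0.0762). Per length, the deposited FPKM of CESA5 was 112 and 88.9 in the control and salt L-type libraries, against 118 and 93.3 in the S-type libraries. Each other primary wall member had the higher FPKM in L-type roots under both treatments. For CESA1 the FPKM was 199 and 191 in L-type, against 161 and 122 in S-type libraries. The difference between the 2 groups of cellulose synthases was not tested.

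The 3 tested genes of lignin synthesis did not go with the secondary wall cellulose synthases. Of 7 listed, only these 3 had a name that passed the check. Of the 3 tested, 2 were lower in L-type roots and 0 higher, with a median of -0.71. The remaining one, COMT1, held 2866 and 3134 in the control and salt L-type libraries, against 6079 and 3454 in the S-type libraries. 4CL3 (Os02g0177600, chromosome 2, 4280502 to 4285929), for 4-coumarate:CoA ligase, held 1104 and 875 in the control and salt L-type libraries, against 3761 and 1775 in the S-type libraries (log2 fold change -1.38, SE 0.19, limma adjusted p = 0.0048). CAD2 (Os02g0187800), for cinnamyl alcohol dehydrogenase, held 1699 and 1649.9 in L-type, against 3404 and 2252 in S-type libraries. CAD2 did not pass without the control L-type or the control S-type library (adjusted p = 0.0867 and 0.128).

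Wall loosening genes were mostly higher in L-type roots. Of 5 tested expansins 4 were higher and 0 lower, with a median of 1.37. EXPA5 (Os02g0744200, chromosome 2, 31220568 to 31222172) held 153 and 132 in the control and salt L-type libraries, against 41.1 and 45.02 in the S-type libraries (log2 fold change 1.72, SE 0.19, limma adjusted p = 0.00267), and EXPA10 (Os04g0583500) held 291 and 556 in L-type, against 108 and 178 in S-type libraries. EXPA2 was the member that did not pass (log2 fold change 0.22, SE 0.21, limma adjusted p = 0.46). EXPA4 (Os05g0477600) was among the 4 higher genes, but its deposited FPKM had no common direction. That FPKM was 25.3 and 15.97 in the control and salt L-type libraries, against 7.61 and 23.9 in the S-type libraries. The following lists were chosen after values were seen. Of 4 beta-expansins 4 were higher, with a median of 1.29, and of 5 endoglucanases 5 were higher, with a median of 1.51. GLU5 (Os01g0220100, chromosome 1, 6564697 to 6568289), an endo-1,4-beta-glucanase gene, held 55.1 and 209.7 in the control and salt L-type libraries, against 1.29 and 1.8 in the S-type libraries, which is 1 and 2 fragments in the S-type libraries. GLU14 (Os02g0123700) held 28.8 and 55.2 in L-type, against 2.57 and 1.8 in S-type libraries. Of 7 tubulins 5 were higher and 0 lower, with a median of 1.12, led by the beta-tubulin gene TUB2 (Os03g0105600), with 1201 and 1178 in L-type, against 436 and 375 in S-type libraries (log2 fold change 1.57, SE 0.12, limma adjusted p = 0.00197).

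**Figure D3:**
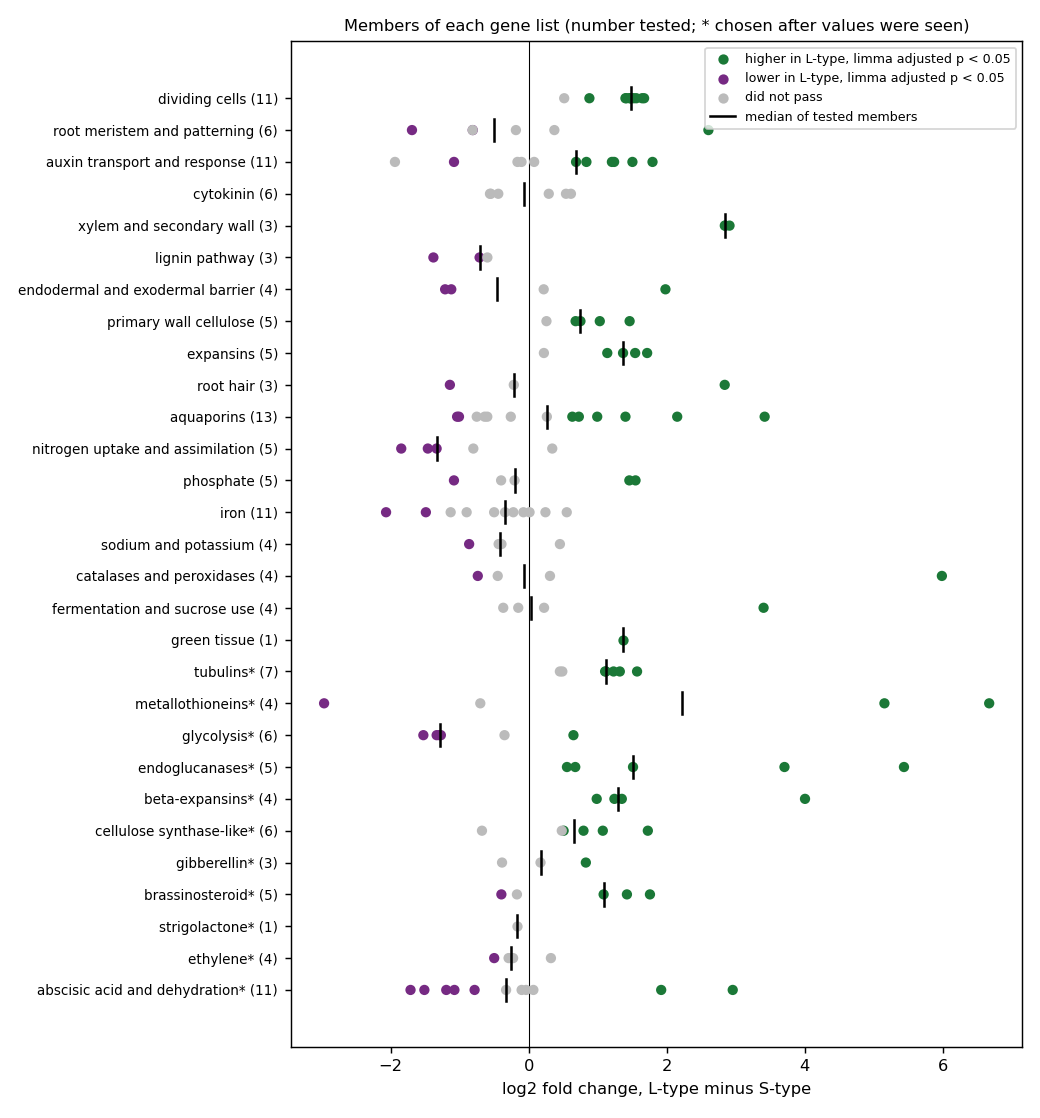
Log2 fold change of L-type minus S-type roots (limma, control and salt together) for each tested member of each list, with coloured points for genes that passed and a bar at the median of tested members. The xylem and secondary wall list lies near 2.85 and the dividing cell list near 1.48, while the nitrogen list has a median of -1.33; lists marked with a star were chosen after values were seen.

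Genes lower in L-type roots included some of the most abundant transcripts of S-type roots. Os11g0428800 (chromosome 11, 13723177 to 13724624) held 1667 and 738 in the control and salt L-type libraries, against 67555 and 62783 in the S-type libraries. It was the gene with the most fragments in both S-type libraries, with 0.843% and 0.8004% of all fragments in genes under control and salt. Os02g0583700 (chromosome 2, 22509550 to 22510620) held 777 and 187 in the control and salt L-type libraries, against 39834 and 17596 in the S-type libraries. Per length, the deposited FPKM of Os11g0428800 was 448 and 186 in L-type and 18071 and 16876 in S-type libraries. That of Os02g0583700 was 282 and 62.6 in L-type and 14392 and 6399.5 in S-type libraries. Both genes were close to silent in nodal roots, with 24.3 and 53.1 and with 6.08 and 9.12 scaled fragments.

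The log2 ratio of Os11g0428800 was -5.34 (-5.42 to -5.26) under control and -6.41 (-6.51 to -6.31) under salt. For Os02g0583700 it was -5.68 (-5.80 to -5.57) and -6.55 (-6.77 to -6.36). In both genes the salt interval lay wholly below the control interval, so the gap was the wider one under salt by more than counting error. Os01g0949900 (chromosome 1, 41844012 to 41847493) held 155 and 143 in the control and salt L-type libraries, against 7835 and 12749 in the S-type libraries (log2 fold change -6.05, SE 0.28, limma adjusted p = 0.00169). Os03g0317900 (chromosome 3, 11449370 to 11450605) held 7.52 and 11.04 in the control and salt L-type libraries, against 237 and 583 in the S-type libraries (log2 fold change -5.19, SE 0.52, limma adjusted p = 0.00229). No name is paired with any of these 4 identifiers.

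Silicon transporters of the root barrier layers were lower in L-type roots. LSI1 (Os02g0745100, chromosome 2, 31266328 to 31269935), the silicon influx channel, held 8976 and 11029.8 in the control and salt L-type libraries, against 21526 and 22198 in the S-type libraries (log2 fold change -1.12, SE 0.23, limma adjusted p = 0.0161). LSI2 (Os03g0107300, chromosome 3, 430697 to 432874), the silicon efflux transporter, held 7772 and 11811 in the control and salt L-type libraries, against 21095 and 23762 in the S-type libraries (log2 fold change -1.21, SE 0.23, limma adjusted p = 0.0115). Both L-type libraries lay below both S-type libraries, and nodal roots held less than either, with 3179 and 5662 of LSI1 and 2159 and 4187 of LSI2. RCN1 (Os03g0281900), an ABC transporter of the suberised exodermis, went the other way, with 45.1 and 80.01 in L-type, against 7.71 and 27.01 in S-type libraries (log2 fold change 1.98, SE 0.57, limma adjusted p = 0.0411). CASP1, for a Casparian strip protein, did not pass (log2 fold change 0.22, SE 0.13, limma adjusted p = 0.252). Without the control S-type library LSI1, LSI2 and RCN1 did not pass (adjusted p = 0.11, 0.0765 and 0.216). RCN1 did not pass without the control or the salt L-type library either (0.0664 and 0.119).

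Glycolysis genes were mostly lower in L-type roots. Of 6 tested members of this list, which was chosen after values were seen, 4 were lower and 1 higher, with a median of -1.28. FBA3 (Os01g0905800, chromosome 1, 39433408 to 39435696), for fructose-bisphosphate aldolase, held 7861 and 7303 in the control and salt L-type libraries, against 21415 and 16415 in the S-type libraries (log2 fold change -1.29, SE 0.18, limma adjusted p = 0.00454). GAPC1 (Os08g0126300), for cytosolic glyceraldehyde-3-phosphate dehydrogenase, held 3949 and 3819 in the control and salt L-type libraries, against 12778 and 9980.3 in the S-type libraries (log2 fold change -1.53, SE 0.17, limma adjusted p = 0.00261). GAPC2 (Os04g0486600), of the same family, was the higher one, with 8535 and 7468 in L-type, against 5511 and 4801 in S-type libraries (log2 fold change 0.65, SE 0.16, limma adjusted p = 0.0267). GAPC3 (Os02g0601300) and triosephosphate isomerase TPI (Os01g0147900) had log2 fold changes of -1.33 and -1.27. GAPC2 did not pass in any fit that left out 1 library, with adjusted p of 0.0544 to 0.176, while the 4 lower genes passed in each of those fits.

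Nitrogen genes that passed were lower in L-type roots. Of 5 tested genes of nitrogen uptake and assimilation 3 were lower and 0 higher, with a median of -1.33. NAR2.1 (Os02g0595900, chromosome 2, 23121133 to 23123149), the partner protein of high-affinity nitrate transporters, held 147 and 129.7 in the control and salt L-type libraries, against 418 and 355 in the S-type libraries (log2 fold change -1.46, SE 0.16, limma adjusted p = 0.00267). AMT1;3 (Os02g0620600), an ammonium transporter for which the name table has neighbouring candidates, held 62.6 and 193 in L-type, against 346 and 468 in S-type libraries. NRT2.3 (Os01g0704100), a nitrate transporter, held 42.6 and 71.7 in L-type, against 81.01 and 249 in S-type libraries. In all 3 genes both L-type libraries lay below both S-type libraries, but the NRT2.3 and AMT1;3 calls were lost without the salt S-type library (adjusted p = 0.0972 and 0.0573). The NRT2.3 call was also lost without the salt L-type library (0.0864), and that of AMT1;3 without the control S-type library (0.0898).

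Phosphate and metal transport differed by gene. Of 5 tested phosphate genes 2 were higher and 1 lower, with a median of -0.21. The phosphate transporter genes PT4 (Os04g0186400) and PT8 (Os10g0444700) were higher, with 73.9 and 119.6 in L-type, against 23.1 and 49.5 in S-type libraries of PT4 and 1407 and 846 in L-type, against 269 and 527 in S-type libraries of PT8. PHO1;2 (Os02g0809800, chromosome 2, 34609403 to 34615015), which loads phosphate into the xylem, was lower, with 1684 and 1649 in L-type, against 4499 and 2823 in S-type libraries (log2 fold change -1.08, SE 0.17, limma adjusted p = 0.00719). PT8 did not pass without the control L-type or the control S-type library (adjusted p = 0.0527 and 0.111).

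Of 11 tested iron genes 0 were higher and 2 lower, with a median of -0.34, where 15.2% of all tested genes were lower. NRAMP5 (Os07g0257200, chromosome 7, 8871632 to 8879127), the manganese and cadmium uptake transporter, held 743 and 961 in the control and salt L-type libraries, against 3391 and 3771 in the S-type libraries (log2 fold change -2.07, SE 0.21, limma adjusted p = 0.00232). IRO3 (Os03g0379300), a basic helix-loop-helix regulator of the iron deficiency response, held 88.9 and 34.03 in L-type, against 194 and 129 in S-type libraries. IRO3 did not pass without the control S-type, the salt L-type or the salt S-type library (adjusted p = 0.0688, 0.0587 and 0.0791). Of 4 tested sodium and potassium transporters 1 was lower and 0 higher, with a median of -0.42. That gene was the potassium transporter HAK1 (Os04g0401700, chromosome 4, 19886595 to 19892537), with 911 and 979 in the control and salt L-type libraries, against 1772 and 1697 in the S-type libraries (log2 fold change -0.86, SE 0.12, limma adjusted p = 0.00477).

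Several water channels were higher in L-type roots. Of 13 tested aquaporins 6 were higher and 2 lower, with a median of 0.26, where 18.8% of all tested genes were higher and 15.2% lower. TIP2;2 (Os06g0336200, chromosome 6, 13407319 to 13408715), of the vacuole membrane, held 2987 and 2986 in the control and salt L-type libraries, against 219 and 362 in the S-type libraries (log2 fold change 3.42, SE 0.29, limma adjusted p = 0.00199). PIP2;6 (Os04g0233400), of the plasma membrane, held 1220.2 and 1025 in the control and salt L-type libraries, against 234 and 275 in the S-type libraries (log2 fold change 2.15, SE 0.17, limma adjusted p = 0.00197). PIP2;3 (Os04g0521100) and PIP1;3 (Os02g0823100) were the lower ones, with 1104 and 449 in L-type, against 2718 and 754 in S-type libraries for PIP2;3 and 2531 and 1565 in L-type, against 6882 and 2472 in S-type libraries for PIP1;3. Both lower calls were lost without the control S-type library (adjusted p = 0.138 and 0.19), without the control L-type library (0.0552 and 0.0906) and without the salt L-type library (0.065 and 0.0744).

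Root hair genes did not move as a group. Of 3 tested, CSLD1 (Os10g0578200), a cellulose synthase-like gene needed for root hairs, was lower, with 42.6 and 66.2 in the control and salt L-type libraries, against 108 and 132 in the S-type libraries (log2 fold change -1.14, SE 0.18, limma adjusted p = 0.00636). EXPA17 (Os06g0108600), an expansin of root hairs, was higher, but on 10 and 14 fragments in the control and salt L-type libraries, against 0 and 3 in the S-type libraries. SRH2 did not pass (log2 fold change -0.22, SE 0.14, limma adjusted p = 0.269).

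Further genes lower in L-type roots received names after their values were seen. MGD3 (Os02g0802500, chromosome 2, 34210424 to 34214885), for monogalactosyldiacylglycerol synthase of membrane lipids, held 1041 and 796 in the control and salt L-type libraries, against 7157 and 7296 in the S-type libraries (log2 fold change -2.97, SE 0.18, limma adjusted p = 0.0017). OC-I (Os01g0803200, chromosome 1, 34033159 to 34034924), the cysteine protease inhibitor oryzacystatin, held 4385 and 2228 in the control and salt L-type libraries, against 24103 and 12869.5 in the S-type libraries (log2 fold change -2.48, SE 0.40, limma adjusted p = 0.00708). IAA16 (Os05g0186900), an Aux/IAA repressor, held 53.9 and 31.3 in L-type, against 351 and 280.0 in S-type libraries, and GOS9 (Os06g0169001) held 2186 and 2265 in L-type, against 5885 and 13559 in S-type libraries. NAC7 (Os06g0530400), for a NAC transcription factor, was higher, with 51.4 and 60.7 in L-type, against 5.14 and 4.5 in S-type libraries (log2 fold change 3.301, SE 0.33, limma adjusted p = 0.00229). In each of these 5 genes both L-type libraries lay on the same side of both S-type libraries. Since the genes were picked after values were seen, that is a description only.

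As a share of each library, the 1439 higher genes held 5.82% of the fragments in genes of L-type roots and 1.64% of S-type roots under control. Under salt they held 6.32% in L-type and 1.76% in S-type roots. The gap between L-type and S-type shares followed from the choice of genes, which used these same libraries. The nodal libraries, which the choice of genes did not use, held 8.23% under control and 7.70% under salt. The 1090 lower genes held 4.90% in L-type and 15.1% in S-type roots under control, and 4.57% in L-type and 13.3% in S-type roots under salt. In nodal roots they held 2.87% under control and 3.05% under salt. For both sets the L-type libraries lay between the S-type and the nodal libraries. Of this order, only the place of the nodal libraries was not set by the choice.

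**Figure D4:**
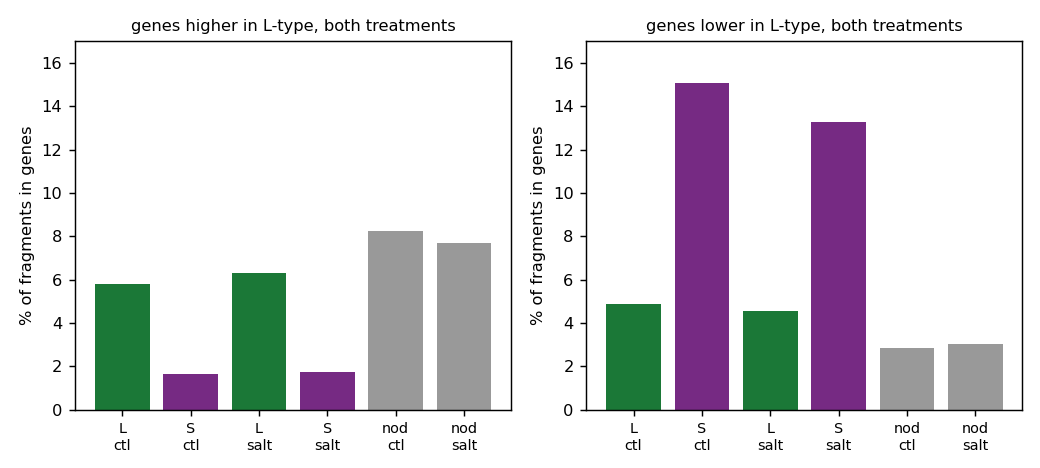
Share of all fragments in genes (percent) held by the 1439 genes higher in L-type roots (left) and the 1090 genes lower in L-type roots (right), with 1 bar per library. The gap between L-type and S-type bars followed from the choice of genes. The higher set reaches 6.32% in the salt L-type library and 8.23% in the control nodal library, and the lower set reaches 15.1% in the control S-type library.

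Most loci of both sets had no member of their set beside them, though a larger share had one than among other measured loci. That difference was not tested. Gene models with the same locus start and end were counted as 1 locus, since 477 of the higher and 364 of the lower genes lie in a locus with another model. Of 1431 loci with a higher gene, 220 (15.4%) had a higher gene in an adjacent locus on either side, against 1345 of 14146 other measured loci (9.51%). Of 1081 loci with a lower gene, 163 (15.1%) had a lower gene in an adjacent locus, against 1036 of 14496 other measured loci (7.15%). The longest run of higher genes spanned 5 loci on chromosome 10, 16518756 to 16600321, with log2 fold changes of 1.25 to 2.55, and was picked for its length. By chromosome, the higher genes made up between 7.40% of the measured genes on chromosome 9 and 11.5% on chromosome 10. The lower genes made up between 4.16% on chromosome 12 and 7.80% on chromosome 6.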

How the data were processed

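Per the submitters' processing notes, the tools were Cuffdiff 2.2.1, Cufflinks 2.2.1, TopHat2 2.0.11, Bowtie and Trimmomatic 0.32, and the build was IRGSP-1.0. Their settings, and whether counting used strand, are not given in the sources used here. The authors' count table is a signal: the fragments of each gene times a factor of its library. Whole fragments were recovered within a tolerance of 0.02 for 99.94% to 99.98% of the values of a library. A second deposited table gives FPKM values, and the authors' Cuffdiff p-values, q-values and calls. No sample column was left unmapped.

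Log2 of the TMM-scaled value plus 1 was tested with limma 3.58.1 with a trend, in an additive model of root type and treatment over all 6 libraries. The values are a scaled signal and not counts, so edgeR 4.0.16 and DESeq2 1.42.0 on recovered fragments served as alternatives. Genes passed filterByExpr on recovered fragments, grouped by treatment. This filter was first run on the deposited values and was changed after both results were seen. Calls have a Benjamini-Hochberg adjusted p under 0.05 over the 20136 genes tested. Fold changes understate the change of low genes because of the pseudocount of 1. Single-treatment ratios carry exact conditional binomial 95% intervals, and a group at 0 is set to a floor of 3 fragments per library. The intervals cover counting error only, since fragments are not independent molecules. A ratio to the floor leaves out the counting error of the other group. On simulated data for L-type against S-type roots with 19926 genes, all sharing 1 dispersion, the test recovered 62 of 100 genes changed 2-fold and 100 of 100 changed 4-fold, with 14 false calls. No other gene was changed there, and neither treatment nor nodal roots had an effect. In the real libraries 6848 of 20136 genes (34.0%) were called, so these figures do not carry over to them.

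The members and lists were chosen with earlier results of these data known. Genes were named by rule. In each direction these were the 12 with the largest smaller ratio of the 2 treatments and the 8 with the highest value. Both groups were drawn only from genes that passed limma and were at least 2-fold the same way under both treatments. Their adjusted p and the common direction of their libraries are thus a description, since both were conditions for being named. Up to 4 per list were also named, and 4 per direction with the largest difference between treatments. The list members were those with the largest smaller ratio in each direction, and any that went against its list. The side on which their libraries lay is a description too. At most 4 unnamed genes per direction were given, apart from the locus listed for RCC3. The files pair no identifier with a name. Symbols were recalled and checked against a RefSeq gene table of another assembly (ASM3414082v1) for chromosome, relative position within 50000 bases of flanking genes, and a length ratio of 0.4 to 1.6. Of 172 symbols 125 passed, and of 107 added after values were seen 76 passed. The position limit was set after the offsets were seen, and added symbols were looked up in that table first. Coordinates are 1-based on IRGSP-1.0 and give the locus in the deposited table. Of the 93 genes named with a test or ratio, 40 share their locus with another gene model, so fragments may be split between models.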

Additional observations from a re-analysis of the deposited data

Results flagged for a closer look

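The ratio of L-type over S-type roots, with 1 added to each value, was past 2-fold in opposite directions under control and salt in PDR9, NAS1 and 5 unnamed genes. That difference between treatments was not tested, since each value rests on 1 library. NAS1 and PDR9 belong to lists, and the others are those with opposite directions among the 4 genes per direction with the largest salt minus control differences, of genes with at least 50 scaled fragments in the highest lateral library.

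PDR9 (Os01g0609300, chromosome 1, 24075070 to 24081885), an ABC transporter gene named after its values were seen, held 616 and 45.1 in the control and salt L-type libraries, against 32.1 and 263 in the S-type libraries. Its log2 ratio of L-type over S-type was -2.52 under salt and 4.22 under control, a difference of -6.74. NAS1 (Os03g0307300, chromosome 3, 10929507 to 10930895), a nicotianamine synthase gene, held 730.4 and 122 in the control and salt L-type libraries, against 1727 and 51.3 in the S-type libraries, and the salt minus control difference of its ratios was 2.48. The neighbouring NAS2 (Os03g0307200), which missed the 2-fold limit under control, held 1368 and 106 in L-type, against 2312 and 45.02 in S-type libraries.

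Os12g0443000 had a difference of -8.10, with 132 and 0.92 in the control and salt L-type libraries, against 5.14 and 23.4 in the S-type libraries. Os05g0583050 had -8.06, with 55.1 and 0 in L-type, against 1.29 and 9.9 in S-type libraries. Os03g0289800 had -7.63, with 150.3 and 3.68 in L-type, against 3.86 and 28.8 in S-type libraries. Os01g0868000 had -7.13, with 167 and 6.44 in L-type, against 24.4 and 157 in S-type libraries. Os11g0262600 went the other way with 3.59, and held 61.4 and 2.76 in L-type, against 199 and 0 in S-type libraries. In the first 4 the control L-type library and the salt S-type library were the high ones of their treatment, and in Os11g0262600 the control S-type library was the highest of the 4, while both salt libraries of the comparison were at or under the floor of 3 fragments. For Os11g0262600 neither a 2-fold difference nor a direction is thus shown under salt.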

How the results depend on the processing

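By replicate number, no paired analysis was possible because all 6 groups hold only the number 1. Treatment pairs L-type with S-type roots in the model. Over the 4 lateral libraries, 2928 genes were higher and 2569 lower with the treatment term, and 2654 and 2162 without it. Leaving out a library gives no value for the 2-fold counts, which need all 4 lateral libraries. In the fits that left out 1 of the 6 libraries, the lone library of a group is assumed to vary like the others, with 1 residual degree of freedom. There the number of genes higher in L-type roots was 1992 to 3218 and lower 1142 to 2718, with the lowest values without the control S-type library. Among list members, 27 to 40 were higher and 8 to 22 lower, against 41 and 18 with all libraries. These member counts cover the 125 symbols that passed the name check, without the lists chosen after values were seen. With all libraries 18.8% of all tested genes were higher and 15.2% lower. The lowest member counts also came without the control S-type library. The cause was not tested. Other scalings, pseudocounts, filters, the lateral libraries alone, edgeR (3637 higher and 3035 lower) and DESeq2 (2758 and 2263) kept every count within 1.5 times. The filter on deposited values, tried after seeing the data, gave 3760 and 3032. For the 2-fold rule under both treatments, 2489 genes were higher and 2388 lower at 1.5-fold, 243 and 217 at 4-fold, and 582 and 708 with a minimum of 200 scaled fragments. With both counting intervals past 2-fold, 672 were higher and 597 lower. A gene whose counting interval reached below 2-fold was not resolved from it at this depth.

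Of the 77 named genes that passed, 0 reversed in any setting, and 57 to 75 kept their call in the fits that left out 1 library. The genes below did not pass with all libraries. NAS1 had a log2 fold change of 0.01, against -0.0017 with no TMM, -0.016 with a pseudocount of 5, -0.61 with edgeR and -0.54 with DESeq2. NAS2 had 0.24, against -0.29 with edgeR and -0.22 with DESeq2. The fits without 1 library gave -2.04 to 2.04 for NAS1, -1.81 to 2.27 for NAS2, -1.87 to 3.57 for PDR9, -4.13 to 0.23 for PIN9 and -0.11 to 0.53 for EXPA2. They gave -2.99 to 3.78 for Os12g0443000, -2.02 to 4.33 for Os03g0289800 and -3.75 to 2.096 for Os01g0868000.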

Other observations

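Hormone and stress lists that were chosen after values were seen support nothing by themselves. Of 11 tested genes of abscisic acid and dehydration 5 were lower and 2 higher in L-type roots, with a median log2 fold change of -0.33. SAPK2 (Os07g0622000), a kinase of abscisic acid signalling, held 1399 and 692 in the control and salt L-type libraries, against 3362 and 3153 in the S-type libraries (log2 fold change -1.71, SE 0.25, limma adjusted p = 0.00545). DREB1A (Os09g0522200), a transcription factor of cold and drought responses, held 688 and 621 in L-type, against 1456 and 1568 in S-type libraries, and P5CS2 (Os01g0848200), of proline synthesis, was higher, with 48.9 and 144 in L-type, against 2.57 and 33.3 in S-type libraries. Both L-type libraries lay below both S-type libraries for SAPK2 and DREB1A and above them for P5CS2.

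Of 5 tested brassinosteroid genes 3 were higher and 1 lower, with a median of 1.08. The receptor gene BRI1 (Os01g0718300, chromosome 1, 29927587 to 29931452) held 813 and 1009.8 in the control and salt L-type libraries, against 267 and 273 in the S-type libraries (log2 fold change 1.76, SE 0.15, limma adjusted p = 0.00199), while its co-receptor BAK1 was lower by a small amount (log2 fold change -0.396, SE 0.12, limma adjusted p = 0.0467). BAK1 did not pass in any fit that left out 1 library, with adjusted p of 0.0859 to 0.184. Of 6 tested cellulose synthase-like genes 4 were higher and 0 lower, led by CSLC3 (Os08g0253800), with 1089.9 and 1032 in L-type, against 284 and 367 in S-type libraries. Of 3 gibberellin genes the growth repressor SLR1 was higher (log2 fold change 0.83, SE 0.17, limma adjusted p = 0.0138), and of 4 ethylene genes the receptor ERS1 was lower (log2 fold change -0.500, SE 0.12, limma adjusted p = 0.026). SLR1 did not pass without the control L-type or control S-type library (adjusted p = 0.0519 and 0.0859), and ERS1 kept its call only without the salt nodal library. The 1 tested strigolactone gene did not pass.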
